A study of Mus musculus with 6 samples.

Results

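The 8 genes described here encode the death receptor machinery of mouse thymocytes: the ligands Fasl and Tnfsf10 (TRAIL), their receptors Fas and Tnfrsf10b (DR5), the adaptor Fadd, the kinase Ripk1, the initiator protease Casp8 and its inhibitor Cflar (c-FLIP). They were taken by name from the gene tables of the series, so that 8 of the 41457 listed genes are described, and 7 of the 8 passed the filter on low counts. Fasl did not. The series holds RNA-seq of CD4-CD8- double negative (DN) thymocytes from 2 groups of 3 libraries. Nc1Bio mice (NC1Bio in the labels, labelled as NFATc1 overexpression) carried an additional copy of the Nfatc1 locus on a bacterial artificial chromosome, which expresses a biotin-tagged NFATc1/A, together with the biotin ligase BirA. BirA mice (labelled WT) expressed the ligase from the Rosa26 locus and had only their own Nfatc1. Both groups therefore carried BirA, both were on a C57/B6 background, and the study describes its mice as matched for sex and age. Reads of the added and the endogenous Nfatc1 were not counted apart. The study describes the DN thymocytes of this comparison as freshly isolated. All 6 library titles carry a minus sign after the group name, which the labels do not explain and which elsewhere in the study marks untreated cells. DN cells were what remained after CD4+ and CD8+ cells had been removed on magnetic beads, and were therefore not a pure population. Whether each library came from its own animal is not in the labels, and the p-values accordingly cover only the spread among these 6 libraries, which may be technical.

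Death receptors are members of the TNF receptor superfamily that carry a death domain in their cytoplasmic tail. On ligand binding they assemble FADD and procaspase-8 into a signalling complex in which caspase-8 activates itself and then the executioner caspases, and c-FLIP competes with caspase-8 for a place in that complex. RIPK1 joins related complexes, where its ubiquitination directs the signal to NF-kB and its release allows apoptosis or necroptosis. In T cells, Fas and its ligand are best known for the removal of activated cells, Fasl is a textbook NFAT target, and FADD, caspase-8 and c-FLIP are needed in early T cell development and homeostasis.

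Promoter windows of the genes are shown first, because the 2 groups differ in the dose of a transcription factor whose DNA core is GGAAA. RefSeq (GRCm38.p6) gave 8 windows for 7 of the 8 genes, each reaching from 250 bases before the start site to 50 bases after it, with 2 windows for Ripk1. Windows are printed for both death ligands, for Fas and for Cflar, since the ligands and Fas stand at the head of the pathway and Cflar had the smallest p of the 8 genes. Sequences run 5′ to 3′ on the strand of the gene, and capitals mark GGAAA on either strand (TTTCC where it lies on the opposite one) and TGANTCA, the AP-1 site, which reads alike on both strands. No GGAAA match overlapped a TGANTCA match.
Fasl, chr1:161788446-161788745, minus strand: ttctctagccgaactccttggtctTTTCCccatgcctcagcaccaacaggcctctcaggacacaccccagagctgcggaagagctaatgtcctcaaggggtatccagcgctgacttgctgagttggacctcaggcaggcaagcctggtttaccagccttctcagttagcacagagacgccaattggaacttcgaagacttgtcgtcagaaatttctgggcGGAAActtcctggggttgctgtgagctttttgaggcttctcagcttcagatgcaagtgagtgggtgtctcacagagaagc
Fas, chr19:34290409-34290708, plus strand: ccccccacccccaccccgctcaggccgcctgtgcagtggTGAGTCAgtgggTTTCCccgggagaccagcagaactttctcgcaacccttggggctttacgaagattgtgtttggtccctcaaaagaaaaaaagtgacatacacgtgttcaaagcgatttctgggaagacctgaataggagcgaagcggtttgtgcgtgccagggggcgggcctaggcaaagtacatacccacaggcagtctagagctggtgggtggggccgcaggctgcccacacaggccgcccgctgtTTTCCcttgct
Tnfsf10, chr3:27316827-27317126, plus strand: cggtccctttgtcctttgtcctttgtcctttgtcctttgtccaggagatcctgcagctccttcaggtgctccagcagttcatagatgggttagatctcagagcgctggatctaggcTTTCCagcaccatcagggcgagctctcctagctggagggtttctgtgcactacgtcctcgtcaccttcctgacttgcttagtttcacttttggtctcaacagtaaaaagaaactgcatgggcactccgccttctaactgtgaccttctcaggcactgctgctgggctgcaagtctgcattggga
Cflar, chr1:58711241-58711540, plus strand: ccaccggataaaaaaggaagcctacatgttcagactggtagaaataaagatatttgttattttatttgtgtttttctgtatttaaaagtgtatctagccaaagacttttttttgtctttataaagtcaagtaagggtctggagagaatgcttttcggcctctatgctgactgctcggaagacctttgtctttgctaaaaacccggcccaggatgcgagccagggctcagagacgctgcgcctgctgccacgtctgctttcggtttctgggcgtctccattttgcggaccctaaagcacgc

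The Fasl window held 2 GGAAA cores, at -226 and -30 counted from the start site as 0, and the Tnfsf10 window held 1, at -134. The Fas window held 2, at -199 and 39, and was the only one with TGANTCA, which lay shortly before the first core. The printed Cflar window held none of either. GGAAA was found in 6 of the 8 windows, against 61.3% of all 32851 RefSeq windows of 300 bases, and TGANTCA in 1 of 8, against 7.81%. These are matches of letters and say nothing of binding.

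Sequencing depth was similar between the groups, with 11845952 to 14013497 uniquely mapped gene reads per Nc1Bio library and 13767665 to 15393763 per BirA library. Nfatc1 itself, the check of the labels, stood at 573 ± 23.2 CPM in Nc1Bio and 126 ± 27.9 CPM in BirA (mean ± SD, n = 3 libraries), or 2.19 as a log2 fold change (adjusted p = 0.0141 in edgeR's quasi-likelihood test with Benjamini-Hochberg adjustment, lost without any 1 of the Nc1Bio libraries, at adjusted p = 0.0618 to 0.101, or without BirA replicate 2, at adjusted p = 0.141). CPM values are unique gene reads brought to a common library size by TMM scaling. The summed CPM of 9 DN thymocyte markers was 4065 to 5122 in Nc1Bio and 3449 to 4068 in BirA, which only just overlapped, and none of the 9 was at 0. Of the 9 fold changes, 1 was below 0 (median log2 0.33). Markers of other cells were present too. The sum of 8 mature T cell markers was 556 to 650 CPM in Nc1Bio and 870 to 993 CPM in BirA, with all 8 fold changes below 0 (median log2 -0.83). The 8 B cell markers summed to 57.0 to 94.0 CPM in Nc1Bio and 137 to 386 CPM in BirA, with all 8 below 0 (median log2 -1.72), and the 10 NK and cytotoxic markers to 324 to 487 CPM in Nc1Bio and 690 to 695 CPM in BirA. Macrophage, neutrophil and erythroid marker sums overlapped between the groups and varied widely between libraries, for erythroid genes from 16187 to 88281 CPM in Nc1Bio and from 18316 to 62573 CPM in BirA. The mature T, B and NK marker sums did not overlap between the groups, the NK sum only by way of Gzma (granzyme A), without which it overlapped, and their part in the values of the 8 genes was not tested. In bulk RNA, fewer cells of a type and less RNA per cell cannot be told apart.

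None of the 7 tested genes passed the adjusted threshold of 0.05 in edgeR's quasi-likelihood test, where 0.00818% of all 12224 tested genes did, namely Nfatc1 alone. None passed in limma-voom (0.00818% of genes), in edgeR without the filter (0.749% of 20818 genes) or in DESeq2 (2.96% of 11268 genes with an adjusted p, 2.46% lower and 0.497% higher in Nc1Bio, and 1.52% at the threshold of the study, an adjusted p under 0.01 with an absolute log2 fold change over 0.5). At an unadjusted p under 0.05, edgeR gave 2 genes with lower levels in Nc1Bio, Cflar and Tnfsf10, and 0 with higher levels, against 7.66% and 4.31% of all tested genes. The same 2 genes were those whose libraries did not overlap between the groups with Nc1Bio lower, against 9.98% of all tested genes, and no gene of the 7 had all Nc1Bio libraries higher, against 8.45%. Of the 7 fold changes, 6 were below 0 and 1 above, with a median log2 of -0.29, where the median over all tested genes was -0.0026. The genes are described below by their place in the pathway, and their levels are plotted by library.

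**Figure D1:**
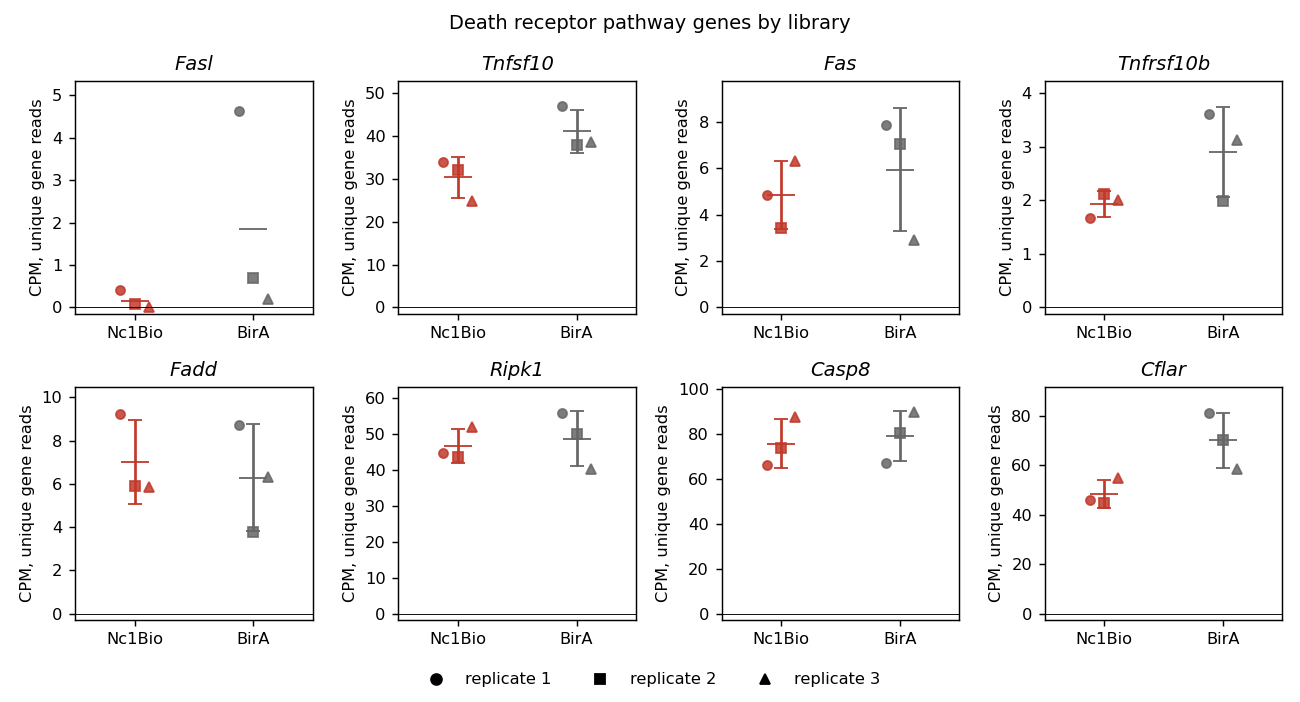
Unique gene reads in CPM for each of the 8 genes, in the 3 Nc1Bio (red) and 3 BirA (grey) libraries, with marker shapes for replicates, horizontal bars for group means and vertical bars for the SD (none for Fasl, which was under the count filter). The Nc1Bio points lie wholly below the BirA points for Tnfsf10 (24.9 to 34.0 against 37.9 to 46.8 CPM) and Cflar (44.8 to 55.1 against 58.7 to 81.3 CPM), and overlap them for the other genes.

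Of the ligands, Tnfsf10, which encodes TRAIL, was the abundant one. It had 34.0, 32.1 and 24.9 CPM in the 3 Nc1Bio libraries and 46.8, 37.9 and 38.5 CPM in the 3 BirA libraries. Every Nc1Bio library lay below every BirA library, with group means of 30.3 ± 4.79 and 41.1 ± 5.0 CPM (mean ± SD, n = 3 libraries). The log2 fold change was -0.44 (SE 0.16, 95% interval -0.81 to -0.070), which did not pass the test over all genes (edgeR unadjusted p = 0.0255, adjusted p = 0.369). With single libraries left out it ran between -0.52 (without Nc1Bio replicate 1) and -0.31 (without Nc1Bio replicate 3), as the plot of left-out libraries shows.

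Fasl, the ligand of Fas and a product of cytotoxic and activated lymphocytes, was barely detected. It had 5, 1 and 0 reads in Nc1Bio and 64, 11 and 3 reads in BirA. These are 0.416, 0.0759 and 0 CPM in Nc1Bio, and 4.62, 0.704 and 0.208 CPM in BirA. The empty library allows up to 0.231 CPM, counting error only. BirA replicate 1 alone held 82.1% of the 78 BirA reads, and Nc1Bio replicate 1 held 5 of the 6 Nc1Bio reads, so that the groups overlapped and 1 library set the BirA mean. The ratio of the Nc1Bio to the BirA mean was 0.0890 with all libraries and 0.360 without BirA replicate 1, whose removal left a BirA mean of 0.456 CPM. The difference in log2(CPM + 0.5) was -1.35 (two-sided exact permutation test, p = 0.2, where 3 against 3 libraries cannot go below 0.1). In edgeR without the count filter, the log2 fold change of Fasl was -3.42 (SE 1.22, edgeR adjusted p = 0.338). Fasl also passed the filter in some fits with a library left out and was called in none (smallest adjusted p = 0.0742, in DESeq2 without BirA replicate 3).

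NK and cytotoxic transcripts were present in all 6 libraries, and 3 genes of the list of 10, chosen after their values were seen, are set beside Fasl. Klrb1c, the NK1.1 antigen, stood at 6.0, 0.834 and 0.308 CPM in Nc1Bio and 36.2, 8.71 and 2.71 CPM in BirA. It ranked the 6 libraries exactly as Fasl did, and was the only 1 of the 10 NK and cytotoxic markers to do so. Gzmb, which encodes granzyme B, had 3.08, 0.607 and 1.08 CPM in Nc1Bio and 23.5, 8.39 and 5.63 CPM in BirA. Klrd1 (CD94) had 2.42, 0.228 and 0.308 CPM in Nc1Bio and 15.3, 2.56 and 0.764 CPM in BirA, so that BirA replicate 1 was the highest library for Fasl and these 3 genes. It was the highest for 7 of the 10 markers. Of the other 3, Ncr1 (NKp46) was highest in Nc1Bio replicate 1, at 3.58 CPM, Nkg7 in Nc1Bio replicate 2, at 36.6 CPM, and Gzma in BirA replicate 3. Nc1Bio replicate 3, which had 0 Fasl reads, held 11.6 CPM of Nkg7. Without Gzma, the most abundant of the 10, the markers summed to 18.4 to 49.6 CPM in Nc1Bio and 36.5 to 141 CPM in BirA, which overlapped. Of the full list of 10, 8 could be tested and had fold changes below 0 (median log2 -2.23), and the part of these markers in the Fasl values was not tested.

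**Figure D2:**
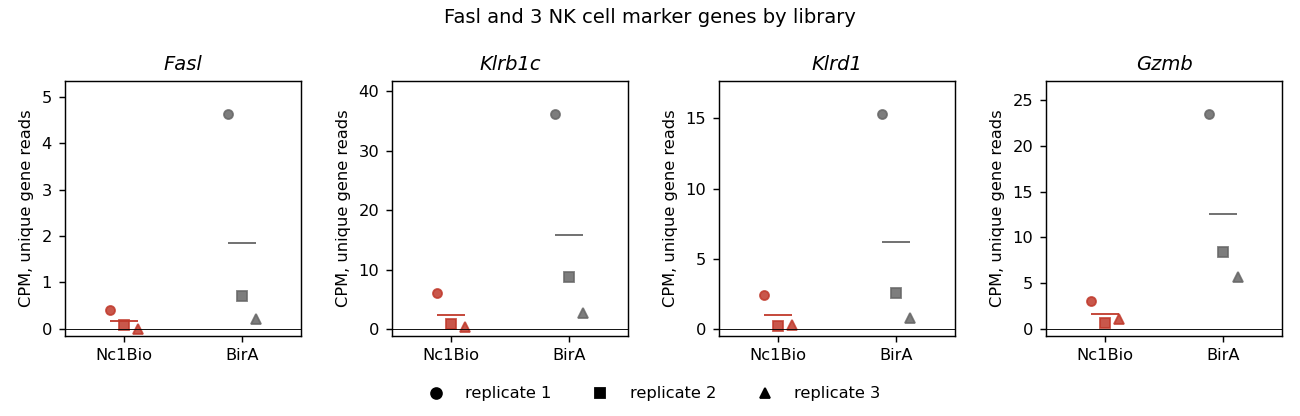
Unique gene reads in CPM for Fasl and for the NK and cytotoxic markers Klrb1c, Klrd1 and Gzmb, in the 3 Nc1Bio (red) and 3 BirA (grey) libraries, with marker shapes for replicates and horizontal bars for group means. BirA replicate 1 is the highest library in each panel, at 4.62 CPM for Fasl and 36.2 CPM for Klrb1c.

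Both receptors were low, and neither differed beyond the spread of the libraries. Fas, the receptor of FASL, had 4.83, 3.41 and 6.32 CPM in Nc1Bio and 7.87, 7.04 and 2.92 CPM in BirA. BirA replicate 3 was the lowest of all 6 libraries and BirA replicate 1 the highest, so that the Nc1Bio libraries lay within the BirA range. The log2 fold change was -0.29 (SE 0.44, 95% interval -1.31 to 0.73, edgeR adjusted p = 0.826), and it moved to -0.62 without BirA replicate 3 and to -0.04 without BirA replicate 1. The Fas values rest on 42 to 110 reads per library.

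Tnfrsf10b, a receptor for TRAIL, had 1.67, 2.12 and 2.00 CPM in Nc1Bio and 3.61, 1.98 and 3.13 CPM in BirA. BirA replicate 2 lay among the Nc1Bio libraries, and the other BirA libraries stood above them. Its log2 fold change of -0.59 was the most negative of the 7, but its interval was wide (20 to 50 reads per library, SE 0.42, 95% interval -1.56 to 0.39, edgeR adjusted p = 0.611).

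Fadd, the adaptor that links death receptors to caspase-8, had 9.24, 5.92 and 5.86 CPM in Nc1Bio and 8.73, 3.78 and 6.32 CPM in BirA. The groups overlapped, with replicate 1 the highest library in each (log2 fold change 0.16, SE 0.38, 95% interval -0.71 to 1.03, edgeR adjusted p = 0.892). Only 18.1 to 26.4% of the Fadd reads of an Nc1Bio library and 13.4 to 26.0% of those of a BirA library were uniquely mapped. On total gene reads, its level was 24.9, 21.4 and 23.1 CPM in Nc1Bio and 24.0, 20.1 and 23.3 CPM in BirA, values that lay closer together. The low unique counts of Fadd are therefore uncertain, the more so because the gene (chr7:144577318-144582463, minus strand) overlaps its antisense transcript Faddos and the use of strand in counting is not stated.

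Ripk1, the kinase at the branch between survival and death signals, had 44.5, 43.4 and 51.9 CPM in Nc1Bio and 55.6, 50.0 and 40.3 CPM in BirA. Nc1Bio replicate 3 was the highest of its group and BirA replicate 3 the lowest of its own, and the groups overlapped. The log2 fold change was -0.06 (SE 0.14, 95% interval -0.40 to 0.27, edgeR adjusted p = 0.891). Ripk1 overlaps Serpinb6a on the opposite strand.

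Casp8, the initiator caspase, had 66.0, 73.7 and 87.3 CPM in Nc1Bio and 67.2, 80.4 and 89.6 CPM in BirA. Replicate 3 was the highest in both groups and replicate 1 the lowest, and the group ranges covered each other almost entirely. It averaged 75.7 ± 10.8 CPM in Nc1Bio and 79.1 ± 11.2 CPM in BirA (mean ± SD, n = 3 libraries), a log2 fold change of -0.06 whose 95% interval of -0.40 to 0.27 bounds the difference in either direction (SE 0.14, edgeR adjusted p = 0.888). Casp8 overlaps the unclassified transcript Gm37760 on the same strand.

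Cflar, whose product c-FLIP restrains caspase-8, had the smallest p of the 8 genes. It stood at 45.9, 44.8 and 55.1 CPM in Nc1Bio and 81.3, 70.5 and 58.7 CPM in BirA. All Nc1Bio libraries lay below all BirA libraries, although Nc1Bio replicate 3 and BirA replicate 3 came close to each other. It averaged 48.6 ± 5.62 CPM in Nc1Bio and 70.2 ± 11.3 CPM in BirA (mean ± SD, n = 3 libraries), a ratio of 0.693. The log2 fold change was -0.53 (SE 0.15, 95% interval -0.87 to -0.19), with an unadjusted p of 0.00679 in edgeR that placed it 313th among the 12224 genes, and it did not pass after adjustment (edgeR adjusted p = 0.263, DESeq2 adjusted p = 0.0690, limma-voom adjusted p = 0.302). Leaving out BirA replicate 3 or Nc1Bio replicate 3, the libraries nearest to the other group, took Cflar past the threshold in DESeq2 (log2 -0.65, adjusted p = 0.00724, and log2 -0.64, adjusted p = 0.0331), an alternative chosen after seeing the data in which 735 and 337 genes passed in all. In edgeR it did not pass with any library left out, and its log2 fold change ran between -0.64 (without BirA replicate 3) and -0.41 (without BirA replicate 1).

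**Figure D3:**
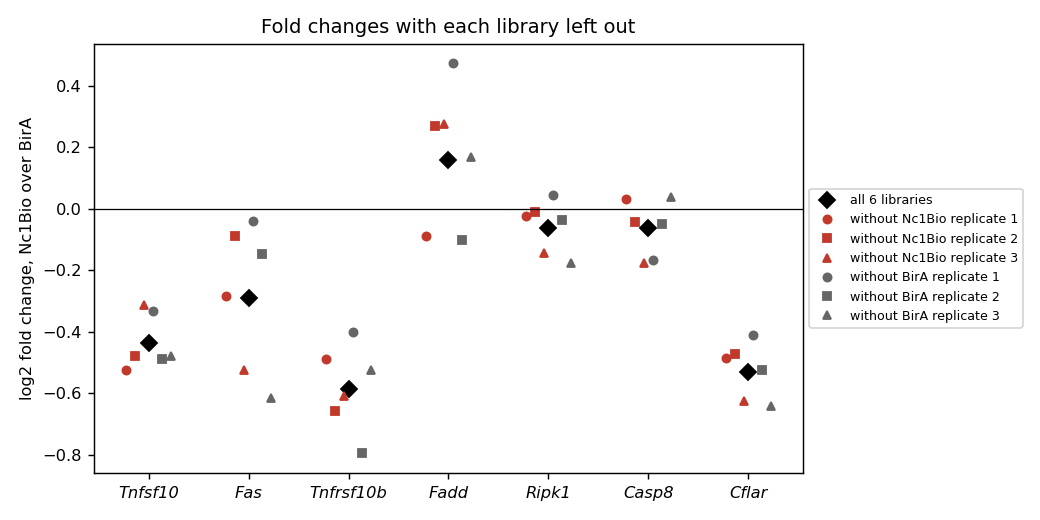
Log2 fold change of Nc1Bio over BirA from edgeR for the 7 tested genes, with all 6 libraries (black diamonds) and with each library left out in turn (red, an Nc1Bio library; grey, a BirA library; shape gives the replicate). Cflar and Tnfsf10 stay below 0 throughout, at -0.64 to -0.41 and -0.52 to -0.31, while Fadd, Casp8 and Ripk1 cross 0.

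Cflar and Casp8 are neighbours on chromosome 1. Cflar lies at chr1:58711508-58758884 and Casp8 at chr1:58795374-58847503 (GRCm38), both on the plus strand, with 36489 bases and no other listed gene between them. The groups did not overlap at Cflar and overlapped at Casp8, and whether the 2 genes differed in their fold changes was not tested. As log2 of exon reads per kb, the level of Cflar relative to Casp8 was -2.67, -2.86 and -2.87 in Nc1Bio and -1.86, -2.34 and -2.76 in BirA. BirA replicate 3 lay among the Nc1Bio libraries, and the mean difference between the groups was -0.48.

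A further feature of Cflar was noticed only after its values had been seen. The share of its unique exon reads that crossed a splice junction was 6.97, 7.76 and 5.90% in Nc1Bio and 9.78, 8.96 and 9.88% in BirA. The groups did not overlap (difference -2.66 percentage points, two-sided exact permutation test, p = 0.1, the smallest value that 3 against 3 libraries allow). Of the 8 genes, 5 had at least 50 exon reads in every library, and Cflar was the only 1 of them whose shares did not overlap. Across all 8994 genes with as many exon reads, 4.65% had shares that did not overlap with Nc1Bio lower, and 3.87% with Nc1Bio higher.

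Counted on junction reads alone, and scaled to the junction reads of each library, Cflar stood at 12.5, 13.2 and 12.1 CPM in Nc1Bio and 32.0, 24.3 and 22.5 CPM in BirA, a ratio of 0.480. These values come from 37 to 45 reads per Nc1Bio library and 82 to 108 per BirA library, and the log2 fold change of -1.05 did not pass over all genes (SE 0.25, edgeR adjusted p = 0.260). Exon reads without a junction gave a ratio of 0.703. The neighbouring Casp8 had junction shares of 28.7, 28.3 and 34.0% in Nc1Bio and 26.7, 32.6 and 29.8% in BirA, which overlapped. Over all genes together the share was 25.8% in Nc1Bio and 25.7% in BirA. Intron reads made up 3.63, 1.86 and 5.04% of the Cflar gene reads in Nc1Bio and 1.95, 2.63 and 1.78% in BirA, so that these shares overlapped.

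**Figure D4:**
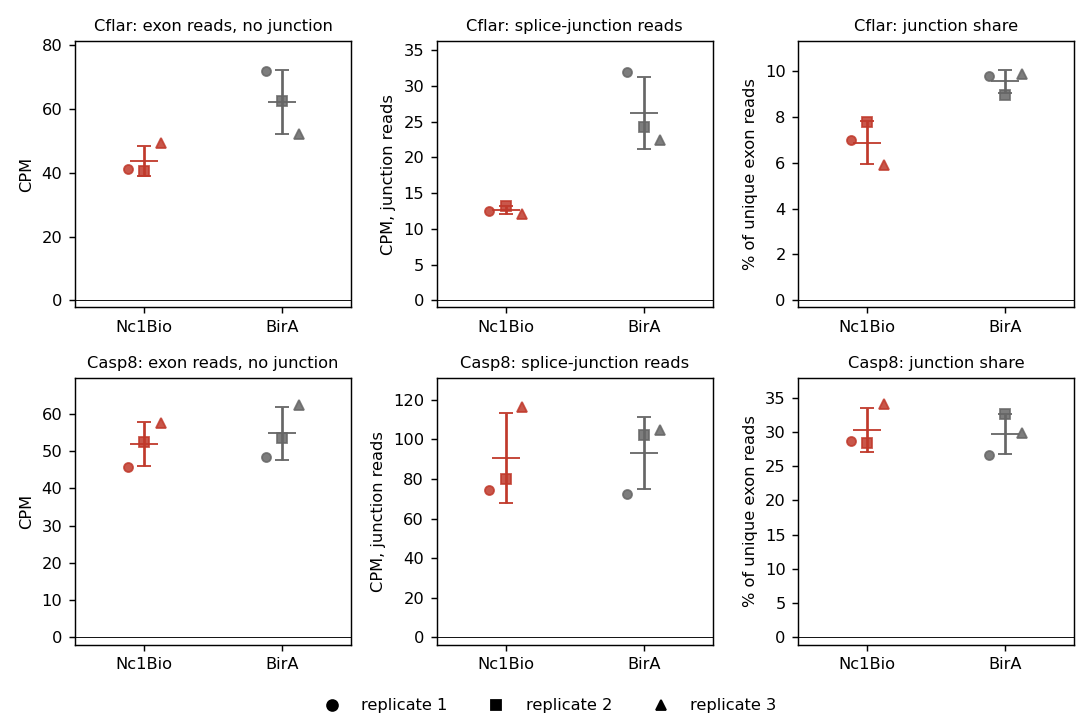
Cflar (top) and its neighbour Casp8 (bottom) in the 3 Nc1Bio (red) and 3 BirA (grey) libraries, as exon reads without a splice junction in CPM, as junction reads in CPM of all junction reads, and as the percentage of unique exon reads that cross a junction, with bars for mean and SD. The Cflar junction share is 5.90 to 7.76% in Nc1Bio and 8.96 to 9.88% in BirA, while the Casp8 shares overlap.

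Per length of exon, Casp8 had the highest level of the 8 genes in each of the 6 libraries. It had 26.3 ± 4.04 CPM of unique exon reads per kb of exon in Nc1Bio and 27.5 ± 3.91 in BirA (mean ± SD, n = 3 libraries). Tnfsf10 (5.71 in Nc1Bio and 7.80 in BirA), Ripk1 (5.59 and 5.86) and Cflar (3.76 and 5.53) followed, but the ranges of Tnfsf10 and Ripk1 overlapped in Nc1Bio, where Ripk1 was the higher in replicate 3, and those of Ripk1 and Cflar in BirA. Fas (2.64 in Nc1Bio and 3.16 in BirA) and Fadd (1.83 and 1.64) came next, with overlapping ranges in both groups. On total exon reads, Fadd had means of 6.03 in Nc1Bio and 5.87 in BirA. On that scale these lay above the means of Tnfsf10 (4.07 and 5.59), Ripk1 (4.10 and 4.32) and Cflar (2.69 and 3.95), and below those of Casp8 (19.4 and 20.2). The ranges of Fadd and Tnfsf10 overlapped there in BirA. The place of Fadd in the order thus depends on the reads counted. Tnfrsf10b (0.356 in Nc1Bio and 0.522 in BirA) and Fasl (0.0864 and 0.976) were the lowest on average in both groups, and most of the BirA value of Fasl came from replicate 1. The exon lengths join all annotated isoforms, 12669 bases for Cflar, which lowers the level of genes with long alternative ends.

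Genes whose pattern over the 6 libraries was most like that of Cflar, by the root mean square difference of centred log2 CPM, were Smurf2 (0.0346), Rbm5 (0.0451) and Itgav (0.0459). SMURF2 is a ubiquitin ligase, RBM5 an RNA-binding splicing regulator and ITGAV an integrin chain. For Casp8 they were Smarcad1 (0.0378), Akap11 (0.0481) and Rab33b (0.0533). These are descriptions over 6 libraries that share their depth and scaling.

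The wider pathway was read from 4 further lists, of which no gene passed the adjusted threshold in edgeR, DESeq2 or limma-voom with all 6 libraries. These lists, like the 8 genes, were chosen with earlier results of these data known. Their counts beside the shares of all tested genes are therefore descriptions only. Among the other caspases, 7 of 9 were tested, 3 with fold changes below 0 and 4 above (median log2 0.05), and 1 was lower at an unadjusted p under 0.05, against 7.66% of all tested genes. This was Casp6, an executioner caspase, with 56.5, 46.6 and 55.6 CPM in Nc1Bio and 67.4, 64.4 and 82.8 CPM in BirA. Its groups did not overlap, with Nc1Bio lower, which held for 9.98% of all tested genes (log2 fold change -0.44, SE 0.13, edgeR adjusted p = 0.302). The initiator Casp2 had 184.1, 187.9 and 205.6 CPM in Nc1Bio and 152.1, 173.7 and 183.6 CPM in BirA. As for 8.45% of all tested genes, all its Nc1Bio libraries lay above all BirA libraries, Nc1Bio replicate 1 only just (log2 fold change 0.18, edgeR adjusted p = 0.521).

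Among the other death receptors, decoys and ligands, 5 of 9 were tested and 4 had fold changes below 0 (median log2 -0.37), with 3 lower at an unadjusted p under 0.05, against 7.66% of all tested genes. Lta, which encodes lymphotoxin alpha, had 0.666, 0.834 and 0.386 CPM in Nc1Bio and 3.39, 1.41 and 2.57 CPM in BirA (log2 fold change -1.95, SE 0.57, edgeR adjusted p = 0.289). Tnfrsf25, the receptor DR3, had 1.67, 1.06 and 2.62 CPM in Nc1Bio and 6.35, 3.27 and 4.65 CPM in BirA (log2 fold change -1.41, SE 0.47, edgeR adjusted p = 0.336). Neither gene overlapped between groups, with Nc1Bio lower, which held for 9.98% of all tested genes. Both were low in all libraries. Tnfrsf1a, the main TNF receptor, did overlap, at 46.8 ± 3.43 CPM in Nc1Bio and 60.4 ± 12.3 CPM in BirA (mean ± SD of 3 libraries, with a log2 fold change of -0.37 and edgeR adjusted p = 0.410). It passed in DESeq2 without BirA replicate 3 (log2 -0.51, DESeq2 adjusted p = 0.0382). That fit was chosen after seeing the data and called 735 of 12674 genes, 516 of them lower in Nc1Bio.

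Of 13 partners of Ripk1, all were tested, with 6 fold changes below 0 and 7 above (median log2 0.016) and 2 genes lower at an unadjusted p under 0.05, against 7.66% of all tested genes. Birc3, the ubiquitin ligase cIAP2, had 23.5, 18.2 and 15.0 CPM in Nc1Bio and 42.7, 32.1 and 23.6 CPM in BirA. Nc1Bio replicate 1 and BirA replicate 3 nearly touched (log2 fold change -0.80, SE 0.25, edgeR adjusted p = 0.320). DESeq2 without BirA replicate 3, chosen after seeing the data, called Birc3 among 735 of 12674 genes (log2 -0.99, DESeq2 adjusted p = 0.0103). The deubiquitinases Tnfaip3 (A20) and Cyld gave log2 fold changes of -0.36 and -0.28 (edgeR adjusted p = 0.417 and 0.433). Of the 10 genes of the downstream machinery, 6 had fold changes below 0 (median log2 -0.05) and 0 an unadjusted p under 0.05 in edgeR. The lowest p values of that list belonged to the apoptosome scaffold Apaf1 (log2 -0.20), the caspase-8 substrate Bid (log2 0.16) and the caspase inhibitor Xiap (log2 -0.16).

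**Figure D5:**
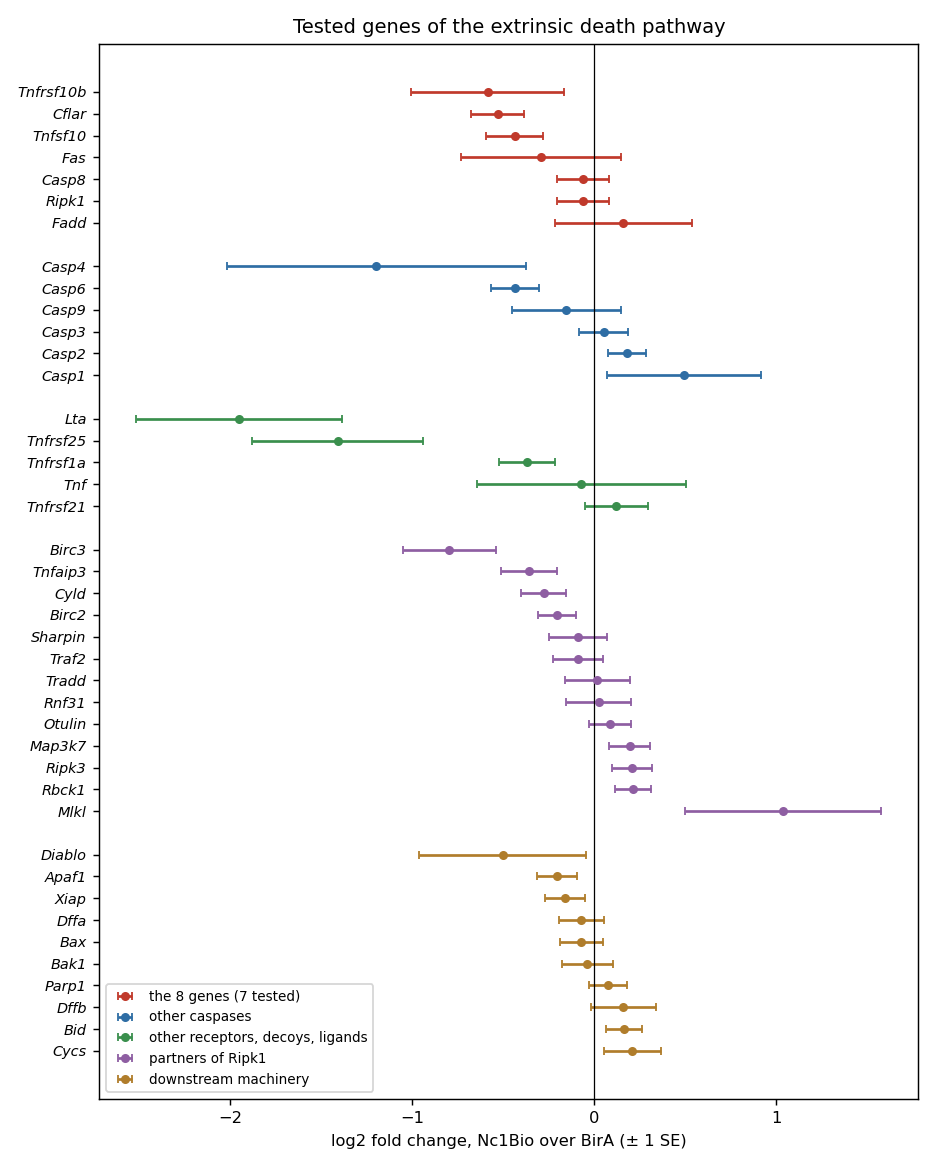
Log2 fold change of Nc1Bio over BirA from edgeR, with bars of 1 SE, for tested genes of the death receptor machinery and of the further lists, by list. The 7 tested genes of the core machinery lie between -0.59 (Tnfrsf10b) and 0.16 (Fadd), and no gene shown passed the adjusted threshold with all 6 libraries.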

How the data were processed

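Poly(A) RNA-seq libraries were analysed from DN thymocytes of Nc1Bio and BirA mice (3 libraries each). Per the methods of the study, reads were trimmed with cutadapt, aligned with STAR to GRCm38 and counted with featureCounts, but the column layout is not one that featureCounts writes, and the program behind the tables and its use of strand are not given in the sources used here. As deposited by the authors, the tables hold whole-number read counts of each gene in 1 library, not normalized, of which unique gene reads were used. Their normalized expression columns were not used. Library totals were 11845952 to 15393763 unique gene reads, which were 64.1 to 76.0% of total gene reads. Intervals of 0 counts cover counting error only.

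Genes were filtered with filterByExpr (12224 of 41457 kept), scaled by TMM and tested with edgeR 4.0.16 in R 4.3.3 (glmQLFit and glmQLFTest, no covariate, Benjamini-Hochberg adjustment over all tested genes, threshold 0.05). DESeq2 1.42.0, limma 3.58.1 (voom), other count columns, scalings and filters, a replicate block and each library left out served as alternatives (16 fixed at the outset, 9 added after seeing the data). Fasl, which was under the filter in the reported test, was tested by an exact permutation test on log2(CPM + 0.5), and its edgeR fit without the filter is also given. No pair of libraries agreed within sampling noise. The fitting steps were tested on simulated data. The 8 genes and all lists were chosen with earlier results of these data known. Named genes were the 8, the 3 of lowest p in each list (1 of them is not reported here), and the 3 closest in pattern to Cflar (lowest p) and Casp8 (highest level). Promoter windows came from RefSeq, GRCm38.p6.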

Additional observations from a re-analysis of the deposited data

How the results depend on the processing

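Over 24 alternatives each, the log2 fold changes of Cflar (-1.05 to -0.41) and Tnfsf10 (-0.68 to -0.31) stayed below 0, as did those of Fas and, over 23, of Tnfrsf10b. Of the 8 genes, 0 were called except in DESeq2 without Nc1Bio replicate 3 or without BirA replicate 3, where 1 was, Cflar. Signs changed for Fadd (edgeR with a library left out -0.10 to 0.47, junction reads -0.47, DESeq2 -0.092 without Nc1Bio replicate 1 and -0.11 without BirA replicate 2), for Casp8 (left out -0.18 to 0.038, DESeq2 0.028 without Nc1Bio replicate 1 and 0.033 without BirA replicate 3) and for Ripk1 (left out -0.18 to 0.044, DESeq2 0.049 without BirA replicate 1). Of the other named genes, Bid reversed on junction reads (-0.21), Smarcad1 on unique exon reads (0.0012) and with libraries left out (-0.12 to 0.088 in edgeR, 0.084, 0.0054, 0.023 and 0.076 in DESeq2 without Nc1Bio replicates 1 and 2 and BirA replicates 2 and 3), Akap11 on junction reads (0.013) and with libraries left out (-0.16 to 0.027 in edgeR, 0.023 in DESeq2 without Nc1Bio replicate 1), and Rab33b with libraries left out (-0.24 to 0.0033). Without BirA replicate 3, DESeq2 also called Tnfrsf1a, Birc3, Smurf2 and Rbm5. Genes called over all those tested were 1 in the reported test, 156 without a filter, 333 in DESeq2, 171 in DESeq2 at the threshold of the study, 3 on junction reads, 350 in DESeq2 on total gene reads, 0 to 2 with a library left out in edgeR, and in DESeq2 273, 162 and 337 without Nc1Bio replicates 1, 2 and 3 and 207, 201 and 735 without BirA replicates 1, 2 and 3. Nfatc1 lost its edgeR call without Nc1Bio replicate 1, 2 or 3 (adjusted p = 0.0689, 0.101 and 0.0618) or BirA replicate 2 (adjusted p = 0.141). Same-numbered libraries deviated together with correlations of 0.34, 0.12 and -0.14, against -0.42 to 0.28 for libraries with unlike numbers. These values cannot decide whether same-numbered libraries share more than a number, which the labels do not say. With the replicate block, 2 genes were called and 0 of the 8 (Cflar -0.52, edgeR adjusted p = 0.304, and Tnfsf10 -0.44, edgeR adjusted p = 0.307). The cause of each change was not tested. The fits on junction reads, DESeq2 on total gene reads, DESeq2 with libraries left out and edgeR's non-legacy mode were chosen after seeing the data.

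For Fas and Tnfrsf10b, with 20 to 110 reads per library, differences inside their 95% intervals could not be told from the spread between these libraries, and Fasl rests on 6 reads in Nc1Bio and 78 in BirA.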
